A study of Mus musculus with 16 samples.

Results

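Genes for collagens and other proteins of the extracellular matrix were followed in protrusions (Ps) and cell bodies (CB) of NIH/3T3 cells, a line of mouse embryo fibroblasts. Members were taken by gene symbol and not by any measured value. The rule took all numbered collagen, Lox, Timp, Mmp, Adamts, Thbs and laminin chain symbols, together with 14 single genes such as Fn1, Sparc, Bgn and Dcn. It found 73 of the 13015 listed genes, and Postn, Lum and Eln were not among the genes listed. Of the 73 genes, 60 had a mean log2 CPM of at least 1 over the 16 libraries, where CPM is the read count of a gene scaled to the library size the authors used.

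Cells of all groups were serum starved, plated for 2 h on filters with pores of 3 µm and exposed for 1 h to LPA, a lipid attractant, from the lower chamber. They were fixed in 0.3% paraformaldehyde for 10 min. Protrusions that had passed through the pores gave the Ps fraction, after cell bodies were wiped off the upper side. Other filters, with protrusions removed from the underside, gave the CB fraction. The cells had received a control siRNA (siControl) or siRNA against Apc (siAPC), a tumor suppressor that limits β-catenin signaling and binds microtubules. Each of the 4 groups, CB and Ps of either siRNA, held 4 libraries, which the study calls independent replicates. All cells were of 1 line, and the labels do not say which Apc sequence the siRNA targeted.

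Matrix proteins are made at the rough endoplasmic reticulum and leave the cell through the secretory pathway. Fibrillar collagens assemble outside the cell into fibrils that lysyl oxidases cross-link, whereas type IV collagens, laminins, nidogens and perlecan build the basement membrane. Fibronectin, thrombospondins and small proteoglycans connect this network to cells. Metalloproteases of the Mmp and Adamts families cut it, and Timp proteins inhibit them. Fibroblasts are the main source of interstitial matrix in most tissues.

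Libraries held 13466225 to 20296087 reads in listed genes. At the effective library sizes recovered from the values, a gene with 3 reads has a log2 CPM between -2.73 and -1.80, a floor that covers counting error only. Apc RNA in siAPC was 31.3% of siControl in CB and 27.9% in Ps. Fibroblast markers fixed as a list were listed for 7 of 9 genes, with Vim at 74956 to 142527 reads per library and Thy1 at 1 to 13. Fap was not listed. Of the endothelial list, Pecam1 held 0 to 12 reads and the other genes were not listed. Of the blood list, Lyz2 held 162 to 502 reads and Cd68 44 to 125, and Ptprc was not listed. Of the epithelial list, Krt14 held 3118 to 8353 reads, Krt8 68 to 174 and Cdh1 24 to 50, and Epcam was not listed. Library values deviated from their group mean with GC content to differing degrees, with Spearman correlations across genes of -0.532 to -0.655 in siControl CB replicate 3 and in replicate 2 of the other groups. The other libraries ranged from -0.0387 to 0.540. Counts without the 4 libraries of strong negative correlation are given beside the main ones, and those of strong positive correlation, such as siAPC CB replicate 3 (0.540) and siAPC Ps replicate 4 (0.511), were kept.

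The matrix genes took up 6.30% ± 0.241 (SD, n = 4) of listed reads in siControl CB and 2.42% ± 0.244 in siControl Ps. In siAPC these shares were 7.62% ± 0.199 in CB and 3.36% ± 0.145 in Ps. Col1a1, Fn1, Col1a2, Sparc and Col6a1 together supplied 63.6% of the matrix reads in siControl CB and 68.6% in siAPC CB. Per kilobase of merged exons, the level in siControl CB was highest for Col1a1, the α1 chain of type I collagen, at 1815 ± 76.4 CPM per kb (SD, n = 4). Sparc, a collagen-binding glycoprotein, followed at 967 ± 34.2 CPM per kb, then Fn1, fibronectin, at 803 ± 91.9 and Col6a1, a type VI collagen chain, at 802 ± 23.1. The last 2 of these levels differed by less than their spread. In siControl Ps the first place went to Sparc at 789 ± 14.8 CPM per kb, with Col1a1 at 729 ± 122, and these ranges overlapped.

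The first comparison asked how matrix RNAs divided between protrusions and cell bodies. In siControl, 57 of the 73 genes were lower in Ps than in CB and 3 were higher at an adjusted p below 0.05 (limma, adjusted over all 13015 genes). Over all genes, 31.2% were lower and 29.1% higher. In siAPC, 59 were lower and 3 higher, against 30.9% lower and 29.8% higher of all genes. The median Ps minus CB difference of the 73 genes was -1.07 on the log2 scale in both siRNAs, whereas that of all genes was -0.00 in siControl and 0.01 in siAPC. The same 55 genes were lower in both siRNAs. Without the 4 libraries of strong negative GC correlation, the counts were 55 lower and 3 higher in siControl and 60 lower and 5 higher in siAPC.

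The study called RNAs enriched in Ps at a fold change above 2 and a p below 0.05. With these cutoffs (unadjusted p) turned toward CB, 41 of the 73 genes were CB-enriched in siControl and 42 in siAPC. Of all genes, 6.82% and 5.05% met this rule. None of the 73 met the cutoffs in the Ps direction that the study used, which 7.19% of all genes met in siControl and 7.67% in siAPC. By the limma test without a fold limit 3 genes were higher in Ps in each siRNA at an adjusted p below 0.05, and 3 in each under voom weights.

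Fibrillar collagens had the lowest median of the role classes, -1.43 in siControl and -1.37 in siAPC. In siControl 8 of 9 were lower in Ps, and in siAPC 9 of 9. Col1a1 (chr11:94936224-94953042, GRCm38, plus strand) stood at 13.55, 13.49, 13.49 and 13.62 log2 CPM in siControl CB replicates 1 to 4. In siControl Ps it stood at 12.04, 11.96, 12.45 and 12.38. No Ps library reached the level of a CB library, and Ps held 39.8% of the CB level (log2 difference -1.33, SE 0.11, adjusted p = 5.46e-09). Col1a2, the partner chain of type I collagen, stood at 13.11, 13.06, 13.09 and 13.19 in siControl CB and 11.47, 11.51, 11.87 and 11.78 in siControl Ps (-1.46, SE 0.09). Col3a1, the type III chain, stood at 11.15, 11.09, 11.17 and 11.25 in CB and 9.55, 9.70, 9.86 and 9.81 in Ps (-1.43, SE 0.09). Neither pair of groups overlapped. The type V chains Col5a1 and Col5a2, which regulate fibril diameter, differed by -1.44 and -1.42.

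Among genes with a mean of at least 1, the lowest Ps level relative to CB belonged to Col11a2, a minor fibril chain best known from cartilage. Its values were 3.98, 4.04, 4.27 and 4.20 log2 CPM in siControl CB and 2.28, 2.33, 1.65 and 2.09 in siControl Ps. The groups did not overlap, and the Ps level was 24.4% of CB (log2 difference -2.03, SE 0.13, adjusted p = 3.84e-10). In siAPC the Ps level was 28.4% of CB (-1.81). Col5a3, another type V chain, was at 31.0% of CB in siControl and 29.3% in siAPC.

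Of 16 basement membrane genes, 13 were lower in Ps in each siRNA, with medians of -1.09 and -1.11. Col4a1 and Col4a2, the 2 ubiquitous type IV chains whose genes lie head to head, differed by -1.35 and -1.31 in siControl. Col4a5 stood at 8.06, 8.09, 8.17 and 8.30 log2 CPM in siControl CB and 6.20, 6.50, 6.72 and 6.59 in siControl Ps. Its groups were apart, with Ps at 31.9% of CB (-1.65, SE 0.09). Hspg2, which encodes the large proteoglycan perlecan, stood at 9.90, 9.83, 9.89 and 10.09 in siControl CB. In siControl Ps it stood at 8.13, 7.99, 8.83 and 8.75, so the groups were apart while the Ps libraries spread by more than the CB ones. Its difference was -1.50 (SE 0.15) in each siRNA. The laminin chains Lamb1, Lamb2, Lamc1 and Lama5 differed by -1.14, -1.47, -1.07 and -1.04 in siControl.

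Among other collagens, 10 of 12 were lower in Ps in each siRNA. Col16a1, a collagen that associates with fibrils, stood at 8.75, 8.72, 8.80 and 8.81 log2 CPM in siControl CB and 6.87, 6.82, 7.32 and 7.18 in siControl Ps. The groups did not overlap, and Ps was at 30.2% of CB in siControl and 32.2% in siAPC. Col6a1, Col6a2 and Col6a3, which form the beaded type VI filaments, differed by -1.19, -1.11 and -1.31 in siControl. Col8a1, a short-chain network collagen, was lower in siControl (-0.61, adjusted p = 0.00374) and did not pass in siAPC (-0.25, adjusted p = 0.204). The difference between these 2 values did not pass the test either (interaction 0.36, SE 0.24, adjusted p = 0.981).

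**Figure D1:**
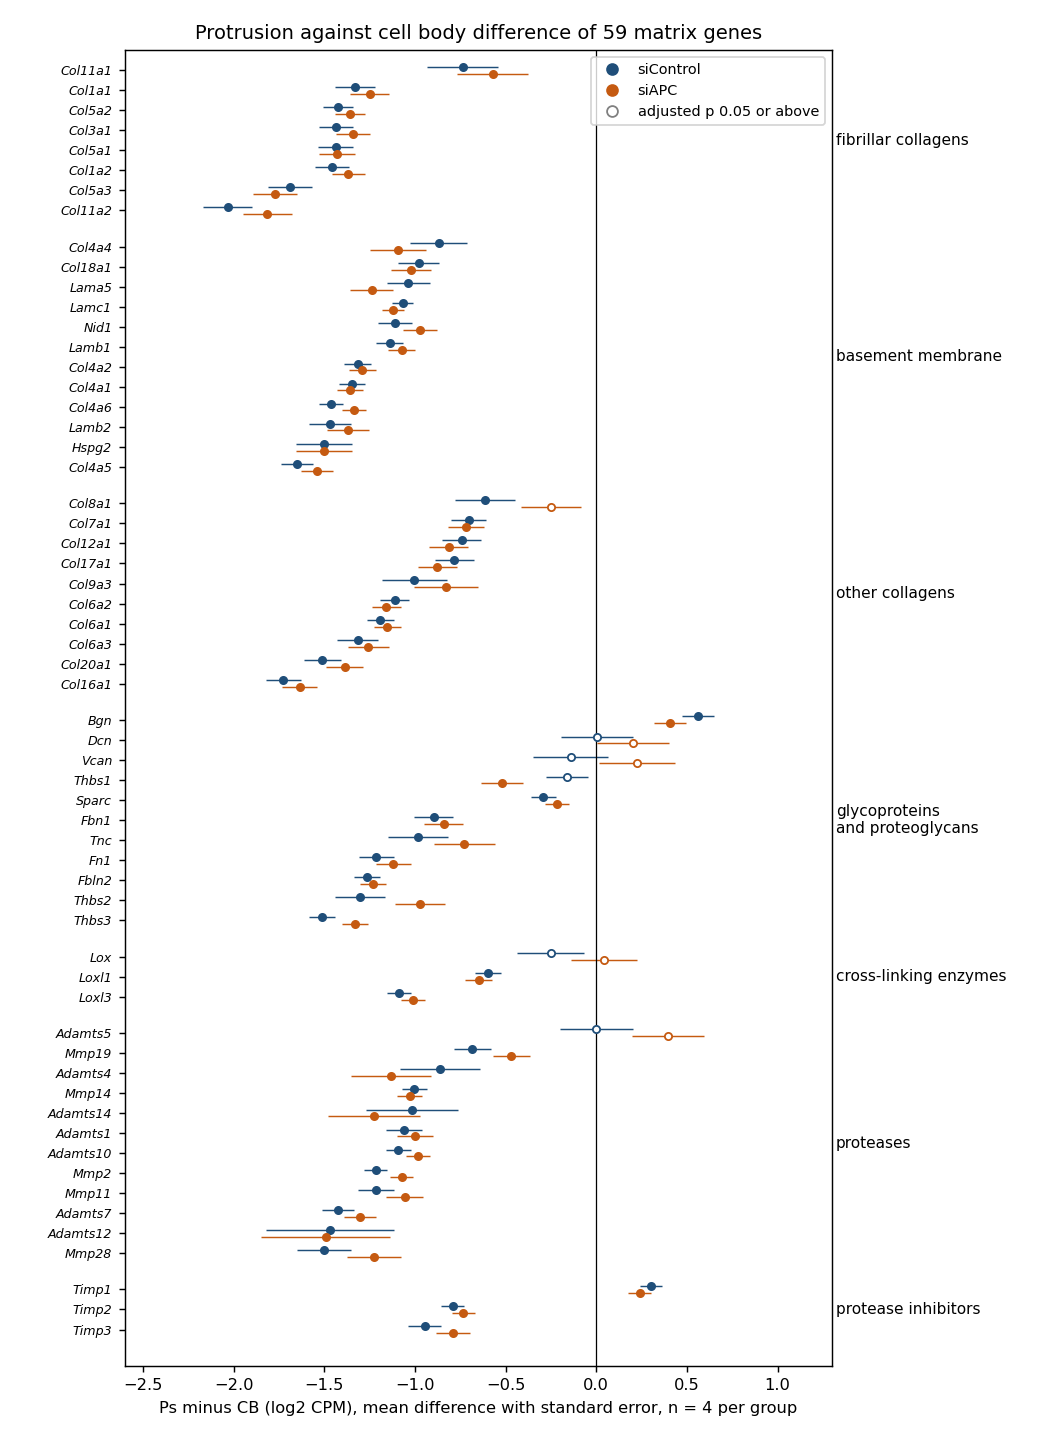
Ps minus CB difference in log2 CPM (horizontal axis) of 59 matrix genes with a mean of at least 1, grouped by role, in siControl (blue) and siAPC (orange). Points are limma differences of group means, bars are standard errors, and open points did not pass an adjusted p of 0.05. Nearly all genes lie left of 0, with Bgn and Timp1 passing to the right in both siRNAs.

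Glycoproteins and proteoglycans ranged from -1.51 for Thbs3 to 0.56 for Bgn in siControl. Of 11 genes, 7 were lower and 1 higher in siControl, and 8 lower and 1 higher in siAPC. Fn1 values were 13.37, 13.29, 13.04 and 13.06 log2 CPM in siControl CB and 12.01, 12.07, 11.97 and 11.86 in siControl Ps. The groups were far apart, and Ps held 43.2% of the CB level (-1.21, SE 0.10, adjusted p = 4.7e-09). Thbs3, thrombospondin 3, stood at 6.36, 6.27, 6.35 and 6.43 in CB and 4.73, 4.69, 5.00 and 4.95 in Ps of siControl, also without overlap. Fbln2, fibulin 2, and Thbs2, thrombospondin 2, were at 41.6% and 40.5% of CB. Sparc, at 11.84, 11.79, 11.81 and 11.91 in siControl CB and 11.54, 11.57, 11.56 and 11.51 in siControl Ps, had Ps libraries below all CB libraries, with Ps at 81.7% of CB in siControl (-0.29, SE 0.07, adjusted p = 0.00112) and 86.1% in siAPC. The Sparc difference depended on the scaling, at -0.59 in siControl and -0.37 in siAPC scaled to total listed reads and -1.18 and -0.84 under quantile normalization.

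Bgn was the gene with the highest Ps level relative to CB among those with a mean of at least 1. It encodes biglycan, a small proteoglycan that binds collagen and TGFβ. Its values were 10.56, 10.58, 10.30 and 10.38 log2 CPM in siControl CB and 11.20, 11.01, 10.97 and 10.89 in siControl Ps. In siAPC they were 10.997, 10.92, 10.85 and 10.71 in CB and 11.37, 11.33, 11.23 and 11.17 in Ps. Ps libraries lay above CB libraries in both siRNAs, by 0.56 (SE 0.09, adjusted p = 1.57e-05) and 0.41 (SE 0.09, adjusted p = 0.000497). This direction held under every scaling tried but quantile normalization, under which Bgn was lower in Ps by -0.21 in siControl and -0.25 in siAPC. Scaled to total listed reads the Bgn difference was 0.26 and 0.25.

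Timp1, a secreted inhibitor of metalloproteases, was higher in Ps by 0.30 (SE 0.06, adjusted p = 0.000329) in siControl and 0.24 in siAPC. Its siControl values were 6.77, 6.74, 6.72 and 6.96 log2 CPM in CB and 7.18, 6.96, 7.15 and 7.10 in Ps, so that the lowest Ps library lay just above the highest CB library. Neither Timp1 call held when libraries were scaled to total listed reads (0.0034 in siControl and 0.08 in siAPC). That scaling moved the median of all genes to -0.30 in siControl and to -0.14 in siAPC. It split all siControl calls into 2005 higher and 6193 lower, in place of 3792 and 4058. After removal of a trend with GC content and transcript length Timp1 was lower in Ps (-0.21 and -0.19).

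Loxl1 and Loxl3, which act on elastin and collagen, were lower in Ps in siControl by -0.60 and -1.09. After removal of the GC and length trend the Loxl1 difference was 0.0083 and no longer called. Lox, the founding member, ranged over 8.65, 8.65, 9.63 and 9.13 log2 CPM in siControl CB and 8.60, 8.97, 8.70 and 8.79 in siControl Ps. These groups overlapped, and no difference passed (-0.25, SE 0.18, adjusted p = 0.244 in siControl and 0.04, adjusted p = 0.850 in siAPC). Lox was called lower in siControl Ps under scaling to total listed reads (-0.55) and after removal of the GC and length trend (-0.34). Of the 17 proteases, 14 were lower in Ps in each siRNA. Mmp2, gelatinase A, and Mmp14, its membrane-bound activator, were at 43.0% and 49.8% of CB in siControl. Adamts5, an aggrecan-cleaving protease, did not pass in either siRNA (0.00 and 0.40). Timp2 and Timp3 differed by -0.79 and -0.95, opposite in sign to Timp1 in the same fit, though Timp1 turned once the GC and length trend was removed. Of the exons of Timp3 21.3%, and of Loxl3 11.6%, overlap a gene on the other strand, so these values are uncertain if strand was ignored in counting.

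**Figure D2:**
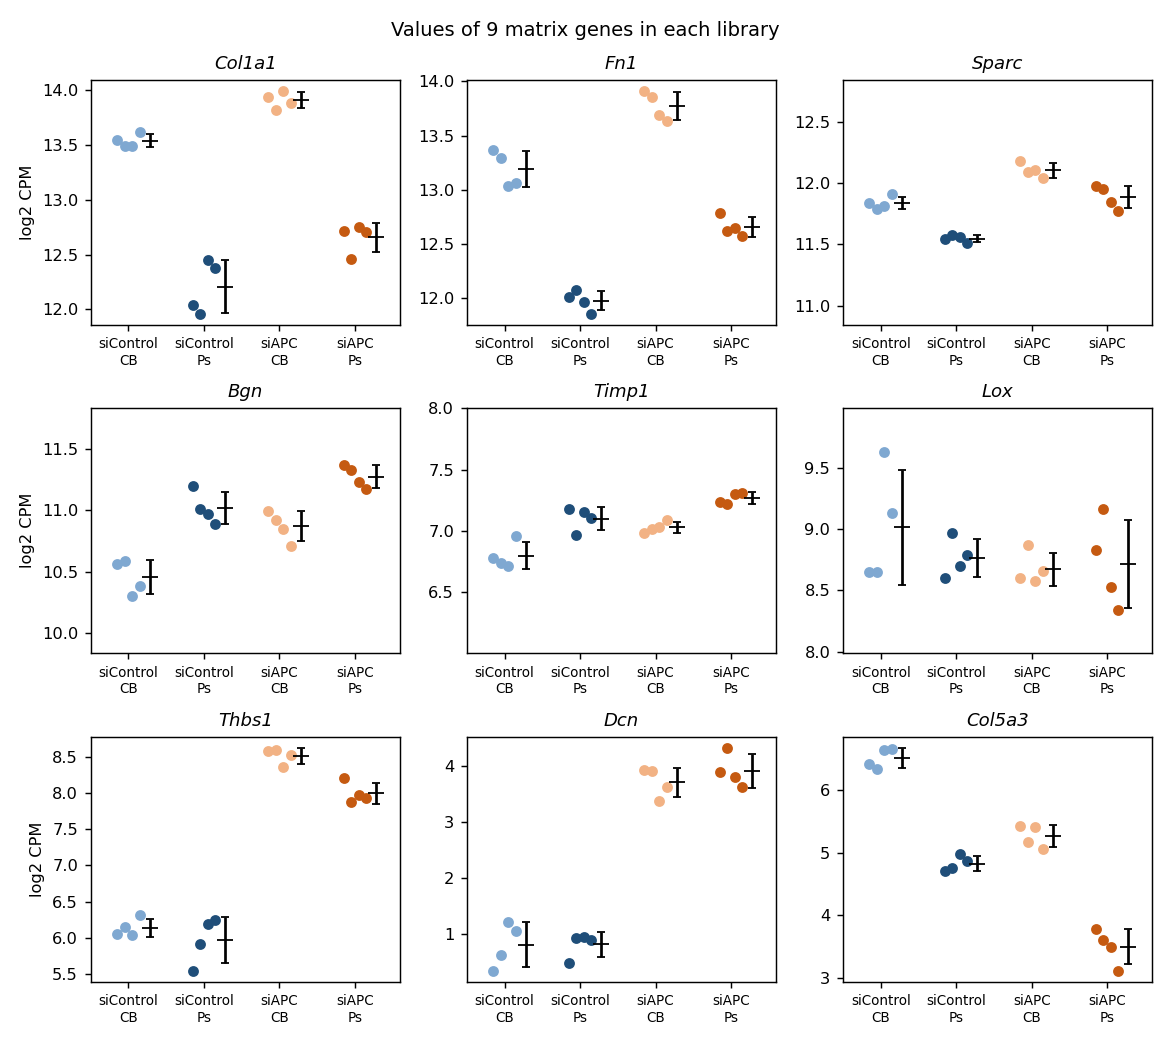
Log2 CPM (vertical axis) of 9 matrix genes in each library of the 4 groups, with colored points for replicates 1 to 4 from left to right and a black mark and bar for the mean and SD. Col1a1, Fn1 and Col5a3 drop from CB to Ps, Bgn and Timp1 rise, and Thbs1 and Dcn separate by siRNA, with Dcn between 3.38 and 4.33 in siAPC libraries and at most 1.23 in siControl libraries.

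Genes that make or receive the matrix were followed by 2 lists. Of 21 listed genes for collagen folding, modification and export, 14 were lower and 2 higher in Ps in siControl, with a median of -0.41, and 14 were lower and 1 higher in siAPC. The shares over all genes were 31.2% and 29.1% in siControl and 30.9% and 29.8% in siAPC. Plod1, a lysyl hydroxylase of the endoplasmic reticulum, differed by -1.22, and Serpinh1, the collagen chaperone, by -0.73. P4hb, the shared subunit of prolyl hydroxylase, differed by -0.41. Ppib had the highest difference of the list, 0.25 in siControl (adjusted p = 0.00340 in limma) and 0.17 in siAPC (adjusted p = 0.0318). Sec13 and Sec23a, coat proteins of the vesicles that leave the endoplasmic reticulum, differed by 0.18 (adjusted p = 0.0207) and 0.04 (adjusted p = 0.723) in siControl. Sec24d, another coat protein, was lower (-0.44, adjusted p = 3.43e-05).

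Of 21 matrix receptors, 15 were lower and 2 higher in Ps in siControl, with a median of -0.67, and 13 were lower and 1 higher in siAPC, against the same shares over all genes. Itga5, the fibronectin receptor subunit, differed by -1.31 and Dag1, dystroglycan, by -1.47. Itgb1, the common β1 integrin subunit, did not pass (-0.20, adjusted p = 0.165). Ddr2, a receptor tyrosine kinase for fibrillar collagen, was higher in Ps by 1.33 in siControl and 0.93 in siAPC. The summed CPM of the fibroblast list, 7 of 9 genes, was 6339 to 6964 in siControl CB and 10307 to 12060 in siControl Ps. In siAPC it was 7050 to 7533 in CB and 10553 to 10870 in Ps. Vim and S100a4, with mean log2 CPM of 12.49 and 11.20, carried most of this sum. The listed fibroblast genes went both ways, with 2 higher, 2 lower and 3 not passed in siControl (median 0.05). In siAPC 3 were higher, 2 lower and 2 not passed. The summed CPM of the epithelial list, 3 of 7 genes, was 268 to 354 and 263 to 313 in siControl. In siAPC it was 384 to 395 in CB and 305 to 342 in Ps, without overlap. The smooth muscle or myofibroblast list, 3 of 5 genes, went from 216 to 273 in CB to 302 to 368 in Ps of siControl. In siAPC it held 619 to 699 in CB and 793 to 831 in Ps. The chondrocyte list, 2 of 4 genes, held 69.3 to 109 in CB and 35.8 to 62.0 in Ps of siControl. Its siAPC sums were 80.1 to 101 and 56.3 to 60.9. The osteoblast list, 2 of 5 genes, held 27.4 to 29.8 and 18.6 to 21.3 in siControl. In siAPC it held 36.5 to 38.9 and 28.8 to 32.8. The part of these genes in the fraction result was not tested.

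Coding length and GC content differed among the matrix genes and moved with the Ps minus CB difference. Collagen RNAs are long and rich in G and C because of their glycine and proline codons. Across the 73 genes in siControl the Spearman correlation was -0.267 with coding length and -0.382 with GC content. Across 11489 genes with a coding length it was -0.336 and -0.377. In siAPC these correlations were -0.405 and -0.434 across the 73 genes, and -0.323 and -0.491 across the 11489. Genes of 1 sample share libraries and base composition, so these are descriptions. Within each class of coding length the matrix genes had the lower median. In siControl it was -0.27 against 0.11 of all other genes up to 1500 bases, with 10 matrix genes. It was -1.03 against -0.19 above 1500 and up to 3000 bases (16 genes), -1.11 against -0.30 up to 5000 (25 genes) and -1.18 against -0.23 above 5000 (22 genes). In siAPC the medians in the same order were -0.09 against 0.11, -1.01 against -0.19, -1.16 against -0.30 and -1.25 against -0.25. The part of coding length and GC content in the difference was not tested.

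When a trend with GC content and transcript length was removed from every library, the median of the matrix genes was -0.55 in siControl and -0.52 in siAPC. Then 50 were lower and 4 higher in siControl, and 46 lower and 6 higher in siAPC. Of all genes in that fit, 25.4% were lower and 29.6% higher in siControl, and 22.2% and 28.6% in siAPC. The siControl difference of Col1a1 was then -0.60, of Col1a2 -0.88 and of Fn1 -0.64, all still called. Quantile normalization moved the siControl differences the other way for Col1a1 (-2.25), Col6a1 (-1.91), Col6a2 (-1.78) and Timp2 (-1.33). With the GC and length trend removed, 49 of the 60 genes called in siControl kept their call and direction. Among genes with a mean of at least 1, the calls of Adamts14, Adamts4, Col17a1, Col18a1, Col9a3, Lama5 and Loxl1 were lost, and Col7a1 went from -0.70 to 0.24 without passing. In siAPC the calls of Col11a1, Col17a1, Col18a1, Col9a3, Lama5, Loxl1, Thbs1 and Tnc were lost. Col7a1, an anchoring fibril collagen, was then called higher in Ps there (0.34, adjusted p = 0.0139 in limma), in place of -0.72.

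**Figure D3:**
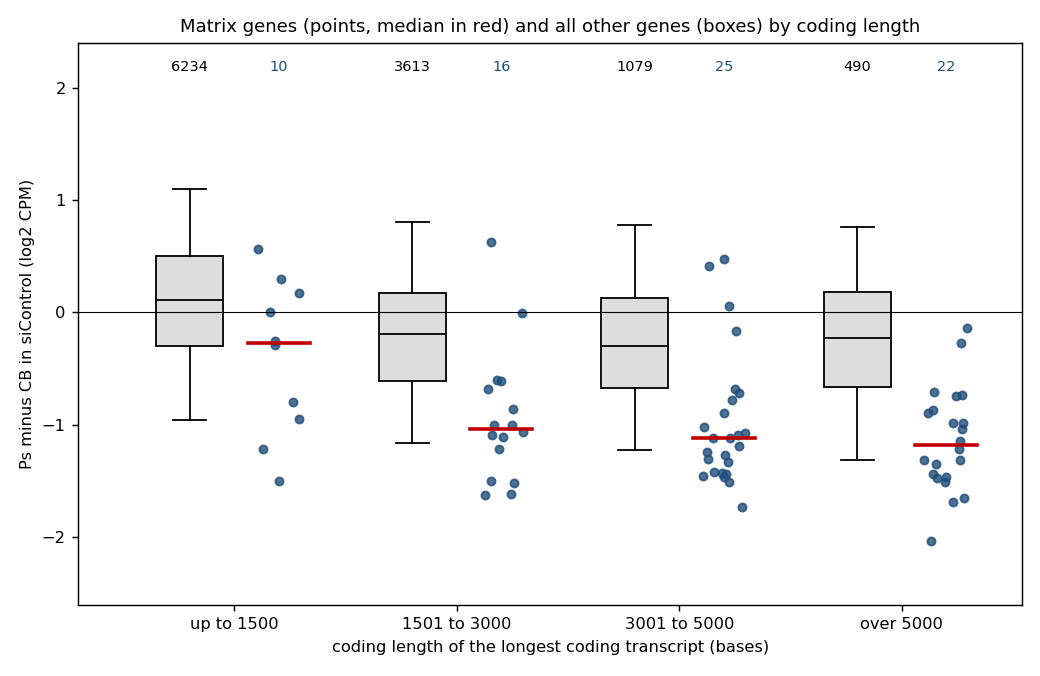
Ps minus CB difference in siControl, in log2 CPM (vertical axis), by coding length in bases (horizontal axis) for all other genes (grey boxes with median and quartiles, whiskers at the 5th and 95th percentile) and matrix genes (points, median in red). Numbers above are genes per class, and the matrix medians from short to long are -0.27, -1.03, -1.11 and -1.18.

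The second comparison set siAPC against siControl within each fraction. In CB, 19 of the 73 matrix genes were higher and 9 lower in siAPC, against 7.52% higher and 5.87% lower of all genes. In Ps, 26 were higher and 9 lower, against 10.7% and 11.2%. The median difference of the 73 genes was 0.15 in each fraction, and that of all genes -0.04 in CB and -0.02 in Ps. Of the genes that were higher, 17 were shared by CB and Ps, which is 89.5% of the CB list and 65.4% of the Ps list. Of the lower ones 7 were shared, or 77.8% of each list, and no gene was called in opposite directions. Over all genes, the shared share was 85.3% of the CB list and 59.9% of the Ps list for higher genes, and 74.0% and 38.6% for lower ones. The fractions share no library, but siAPC CB and Ps libraries of the same number deviated together (mean correlation 0.502). In Ps, scaling to total listed reads raised the median of all genes to 0.14. It gave 38 matrix genes higher and 4 lower, against 22.6% and 4.23% of all genes in that fit. In CB quantile normalization gave 24 higher and 6 lower, against 8.43% and 6.53%. Without the 4 libraries of negative GC correlation, the CB counts were 20 up and 8 down with siAPC, and the Ps counts 24 up and 10 down. The CB count of lower genes fell to 4 without siAPC CB replicate 4 or without siControl CB replicate 4.

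Dcn had the largest difference among genes with a mean of at least 1. It encodes decorin, a small proteoglycan that coats collagen fibrils, on chr10:97479609-97518143. In siControl CB it stood at 0.36, 0.64, 1.23 and 1.06 log2 CPM, or 21 to 54 reads, and in siAPC CB at 3.93, 3.92, 3.38 and 3.64, or 202 to 329 reads. In siControl Ps it stood at 0.49, 0.94, 0.96 and 0.90 and in siAPC Ps at 3.90, 4.33, 3.81 and 3.63. All siAPC libraries lay above all siControl libraries, by 7.44-fold in CB (adjusted p = 5.71e-09) and 8.55-fold in Ps (adjusted p = 1.88e-09). Decorin RNA itself did not pass between Ps and CB in either siRNA (0.00 and 0.20).

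Thbs1, on chr2:118111876-118127133, encodes thrombospondin 1, a matrix glycoprotein that inhibits angiogenesis and activates TGFβ. It held 6.05, 6.15, 6.03 and 6.31 log2 CPM in siControl CB and 8.58, 8.59, 8.35 and 8.53 in siAPC CB. In Ps it held 5.55, 5.92, 6.19 and 6.24 in siControl and 8.20, 7.87, 7.97 and 7.93 in siAPC. The siRNA groups were far apart in both fractions, with siAPC 5.19-fold higher in CB (2.38, SE 0.12) and 4.05-fold in Ps (2.02, SE 0.12). Thbs1 was the 1 matrix gene with an unadjusted p below 0.05 for the change of its Ps minus CB difference. That difference went from -0.16 in siControl to -0.52 in siAPC, and the change (-0.36, SE 0.17) did not pass in limma (adjusted p = 0.981).

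Col8a1 was 2.49-fold higher in siAPC CB and 3.20-fold in siAPC Ps. Its values were 3.16, 3.19, 3.77 and 3.38 log2 CPM in siControl CB and 4.49, 4.80, 4.63 and 4.85 in siAPC CB, and 2.28, 2.95, 2.73 and 3.10 and 4.32, 4.79, 4.38 and 4.28 in Ps. The siRNA groups did not overlap. Mmp28, epilysin, a secreted metalloprotease, was 2.12-fold higher in CB and 2.56-fold in Ps. It stood at 5.40, 5.37, 5.43 and 5.67 in siControl CB and 6.38, 6.27, 6.77 and 6.79 in siAPC CB, and at 3.83, 3.67, 4.12 and 4.25 and 5.36, 4.93, 5.41 and 5.60 in Ps, without overlap. Part of its exons overlaps a gene on the other strand, and the sources do not say if counting used strand. Col4a4, a type IV chain of specialized basement membranes, was 1.97-fold higher in CB and 1.69-fold in Ps, with 1.64, 1.22, 1.70 and 1.66 log2 CPM in siControl CB and 2.49, 2.35, 2.60 and 2.70 in siAPC CB. Tnc, tenascin C, a glycoprotein of remodeling tissue, was 1.54-fold higher in CB and 1.84-fold in Ps, with 0.92, 1.318, 1.42 and 0.66 in siControl Ps and 2.02, 1.93, 2.08 and 1.80 in siAPC Ps. Neither gene overlapped between the siRNAs in these fractions. The Tnc call in CB was lost without siAPC CB replicate 3 (0.57, adjusted p = 0.0610 in limma).

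Fn1 was 1.497-fold higher in siAPC CB (0.58, SE 0.10, adjusted p = 0.000395) and 1.60-fold in siAPC Ps (0.68, SE 0.10, adjusted p = 5.47e-05). Its siAPC CB values of 13.91, 13.85, 13.69 and 13.63 log2 CPM all lay above those of siControl CB. Sparc was higher by 0.26 in CB and by 0.34 (1.27-fold) in Ps, and its siAPC CB values were 12.18, 12.09, 12.11 and 12.04. Col1a1 was 1.29-fold higher in CB (0.37, SE 0.11, adjusted p = 0.0291) and 1.37-fold in Ps (0.45, adjusted p = 0.0055), and Col1a2 was 1.27-fold and 1.35-fold higher. Under quantile normalization the Ps differences were larger, at 1.04 for Fn1, 0.61 for Sparc, 0.77 for Col1a1 and 0.72 for Col1a2, whereas in CB the Col1a1 call was lost (0.04). It was also lost without siAPC CB replicate 1, 3 or 4 or siControl CB replicate 1 or 2 (0.34 to 0.38, adjusted p 0.0546 to 0.0886). The Col1a2 call in CB was lost without siAPC CB replicate 1 or 3 (0.33 each, adjusted p 0.0522 and 0.0543). Col3a1 did not pass in either fraction (-0.14 and -0.05), nor did Lox (-0.34 and -0.05).

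Col5a3, which carries the α3 chain of type V collagen on chr9:20770050-20815067, had the lowest difference among genes with a mean of at least 1. It stood at 6.42, 6.33, 6.64 and 6.66 log2 CPM in siControl CB and 5.42, 5.18, 5.42 and 5.06 in siAPC CB. In Ps it stood at 4.71, 4.75, 4.97 and 4.86 in siControl and 3.77, 3.601, 3.49 and 3.11 in siAPC. The groups did not overlap, and siAPC held 42.2% of the siControl level in CB (adjusted p = 7.4e-07) and 39.8% in Ps (adjusted p = 2.48e-07). The other type V chains Col5a1 and Col5a2 did not pass in CB (0.18 and -0.05) or in Ps (0.19 and 0.01).

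Adamts14, which trims the amino end of procollagen, was at 50.7% of siControl in CB and 43.8% in Ps, from 93 to 149 reads in siControl CB and 52 to 77 in siAPC CB. In Ps it stood at 1.55, 1.17, 2.13 and 1.74 log2 CPM in siControl and -0.33, 0.46, 1.12 and 0.57 in siAPC, without overlap. Its CB call was lost without siControl CB replicate 4 (-0.86, adjusted p = 0.0539). Col17a1, a transmembrane collagen, stood at 4.42, 4.38, 4.44 and 4.64 in siControl CB and 4.10, 3.95, 3.98 and 4.13 in siAPC CB. It was lower by -0.43 in CB and -0.52 in Ps, and its CB call was lost without the same library (-0.37, adjusted p = 0.0543). Col18a1, the source of endostatin, was lower by -0.37 and -0.41, with 5.34, 5.26, 4.91 and 5.18 in siControl CB and 4.97, 4.91, 4.78 and 4.56 in siAPC CB, so that the CB groups overlapped. Its CB call did not hold without siAPC CB replicate 3 or 4 or siControl CB replicate 1, 2 or 4 (-0.28 to -0.37, adjusted p 0.0754 to 0.143), under quantile normalization (-0.33) or without a trend in the prior variance. Its Ps call was lost with scaling to total listed reads (-0.25). Mmp14 stood at 7.94, 7.83, 8.20 and 8.03 in siControl Ps and 7.65, 7.501, 7.74 and 7.69 in siAPC Ps. It was lower by -0.33 in CB and -0.35 in Ps, and the Ps call was likewise lost under that scaling (-0.19). Col6a1 and Col6a2 were lower by -0.28 each in CB and by -0.24 and -0.32 in Ps, whereas Col6a3 was higher in Ps by 0.35. Under quantile normalization the Col6a1 and Col6a2 calls were lost in CB (-0.14 and -0.13) and in Ps (-0.0233 and -0.0950), and in Ps also with scaling to total listed reads (-0.0764 and -0.16). In CB, Col6a1 was also lost without siAPC CB replicate 4 (-0.23) and Col6a2 without siAPC CB replicate 2 or 4 or siControl CB replicate 1 or 4 (-0.23 to -0.27). In Ps, Col6a1 was lost without siAPC Ps replicate 3 or 4 or siControl Ps replicate 3 or 4 (-0.18 to -0.24). The Col6a3 call was lost without a trend in the prior variance, without the 4 libraries of negative GC correlation (0.34), and without siAPC Ps replicate 1, 3 or 4 or siControl Ps replicate 1 or 2 (0.24 to 0.35).

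Vcan, versican, a large space-filling proteoglycan, was lower in siAPC CB by -0.76 (SE 0.21, adjusted p = 0.0196) and did not pass in Ps (-0.39, adjusted p = 0.200). In siControl CB it stood at 5.38, 5.28, 6.53 and 5.45 log2 CPM, with replicate 3 far above the rest, and in siAPC CB at 4.85, 5.34, 4.60 and 4.82. The 2 groups overlapped. Without siControl CB replicate 3 the difference was -0.47 (adjusted p = 0.0313 in limma). The call was lost without siAPC CB replicate 3 (-0.66, adjusted p = 0.0724) or siAPC CB replicate 4 (-0.73, adjusted p = 0.0588), without a trend in the prior variance (-0.76) and with scaling to total listed reads (-0.74).

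**Figure D4:**
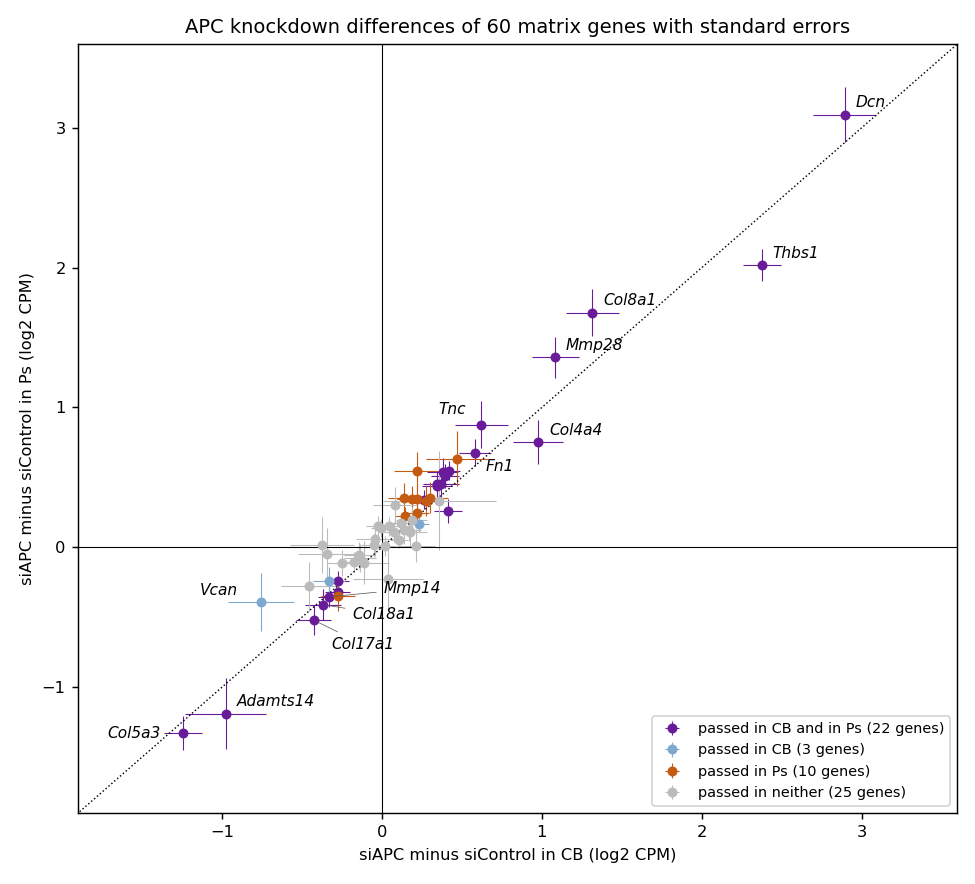
Difference siAPC minus siControl in log2 CPM in CB (horizontal axis) and in Ps (vertical axis) for the 60 matrix genes with a mean of at least 1. Points are limma differences, bars standard errors, colors the fractions in which the gene passed an adjusted p of 0.05, and the dotted line marks equal differences. Dcn (2.90 and 3.10) and Thbs1 (2.38 and 2.02) lie at the upper end and Col5a3 (-1.25 and -1.33) at the lower end.

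Sequence before the start of transcription is shown for the 2 highest and 2 lowest named genes of this comparison, among those changed in both fractions, with a RefSeq promoter entry on GRCm38.p6. Dcn and Thbs1 had no entry. Each window holds 250 bases on the gene's strand up to the annotated start. Windows lie at chr16:57754738-57754987 for Col8a1, chr11:83463041-83463290 for Mmp28, chr9:20815068-20815317 for Col5a3 and chr10:61273420-61273669 for Adamts14, all on the minus strand. Capitals mark, on either strand, the TCF/LEF core CTTTGA, the AP-1 site TGANTCA and the GC box GGGCGG, and in Adamts14 neighboring GC boxes share 1 base.
Col8a1: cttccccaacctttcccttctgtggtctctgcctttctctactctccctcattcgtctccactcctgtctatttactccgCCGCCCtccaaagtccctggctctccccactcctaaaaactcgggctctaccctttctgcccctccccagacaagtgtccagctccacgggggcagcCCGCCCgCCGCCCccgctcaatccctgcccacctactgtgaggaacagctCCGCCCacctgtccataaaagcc
Mmp28: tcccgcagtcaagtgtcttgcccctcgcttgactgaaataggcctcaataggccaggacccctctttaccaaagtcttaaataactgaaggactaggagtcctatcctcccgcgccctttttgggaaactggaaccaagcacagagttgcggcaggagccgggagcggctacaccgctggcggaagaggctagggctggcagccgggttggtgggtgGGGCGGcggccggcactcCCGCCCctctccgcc
Col5a3: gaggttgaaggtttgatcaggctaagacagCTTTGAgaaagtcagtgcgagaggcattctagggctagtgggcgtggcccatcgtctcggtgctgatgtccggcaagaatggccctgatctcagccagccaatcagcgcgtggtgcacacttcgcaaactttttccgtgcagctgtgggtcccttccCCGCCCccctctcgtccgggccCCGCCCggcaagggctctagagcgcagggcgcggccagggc
Adamts14: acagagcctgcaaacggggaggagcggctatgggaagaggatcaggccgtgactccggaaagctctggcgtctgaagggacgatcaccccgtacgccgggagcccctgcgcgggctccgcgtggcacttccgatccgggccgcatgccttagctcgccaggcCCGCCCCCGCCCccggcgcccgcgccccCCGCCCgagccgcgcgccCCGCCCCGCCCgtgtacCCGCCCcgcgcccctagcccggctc
The TCF/LEF core was found in the Col5a3 window alone of these 4, 220 bases before the start, and 13.8% of 32851 RefSeq windows of this length hold it. The AP-1 letters were found in none of the 4 windows and in 6.75% of all. The GC box was found in all 4 windows and in 32.7% of all, with 6 matches in Adamts14, 4 in Col8a1 and 2 each in Mmp28 and Col5a3. GC content of the windows was 60.8%, 62%, 62.8% and 76.4% in the order printed, against a median of 52.4%.

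Other genes of the matrix pathway were compared by siRNA. Of the 21 genes of the collagen-making list, 1 rose in CB with siAPC, and in Ps 3 rose and 3 fell, against 7.52% of all genes that rose in CB and 10.7% and 11.2% that rose and fell in Ps. P4hb was higher in both (0.34 and 0.44). Of the 21 matrix receptors, 6 rose in CB, and in Ps 8 rose and 1 fell, against the same shares of all genes. Itgb5, the β5 integrin subunit, was higher by 0.65 and 0.67, and Itga10, a collagen-binding integrin, by 0.79 and 1.04. Sdc2, syndecan 2, was higher by 0.60 and 0.88. Ddr2 was the receptor that was lower in Ps (-0.51, adjusted p = 0.0163).

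Markers of some other cell types moved with the siRNA. The summed CPM of the smooth muscle or myofibroblast list, of which 3 of 5 genes were listed, was 216 to 273 in siControl CB and 619 to 699 in siAPC CB, and 302 to 368 and 793 to 831 in Ps. Acta2, smooth muscle actin, carried most of it and was higher by 1.46 in CB and 1.35 in Ps, whereas Cnn1 and Myh11 were not listed. Of the osteoblast list 2 of 5 genes were listed, with summed CPM of 27.4 to 29.8 in siControl CB and 36.5 to 38.9 in siAPC CB. Both were called higher in CB and in Ps, Runx2 by 0.37 and 0.61, and Alpl at only 0 to 24 reads per library, so no size is given for it. Of the blood list 2 of 5 genes were listed, with 15.1 to 18.9 in siControl CB and 27.2 to 29.2 in siAPC CB. The epithelial sum was 268 to 354 in siControl CB and 384 to 395 in siAPC CB, and overlapped in Ps (263 to 313 and 305 to 342). The chondrocyte sum (69.3 to 109 and 80.1 to 101 in CB) and the endothelial sum (0.351 to 0.744 and 0.332 to 0.485 in CB) overlapped between the siRNAs. The part of these genes in the matrix result was not tested. In such bulk samples, fewer cells of a type and less RNA per cell cannot be told apart.

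The third comparison asked whether the Ps minus CB difference of matrix RNAs changed with siAPC. None of the 73 passed an adjusted p of 0.05 in limma in either direction, and of all genes 0% passed as higher and 0.0231% as lower. Fits with voom weights, and without the 4 libraries of negative GC correlation, also called 0. At an unadjusted p below 0.05, 0 of the 73 were higher and 1 lower, against 2.07% and 1.71% of all genes. Scaling to total listed reads put 12 higher at that unadjusted level, a setting that raised the median change of all genes to 0.15. The median change was 0.06 over the 73 genes and 0.00 over all genes. For Col1a1 it was 0.08 (SE 0.15), for Fn1 0.09 (SE 0.14), for Sparc 0.08 (SE 0.10) and for Lox 0.30 (SE 0.26).

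The 13 genes with a mean below 1 held 0 to 81 reads per library. Lamb3, Loxl4, Mmp23, Adamts15 and Adamts13 were lower in Ps in siControl, and the first 4 of these also in siAPC, together with Adamts6, Col2a1 and Col6a4. Lamc3, Loxl2, Mmp9, Col26a1 and Nid2 passed in no fraction comparison. Col26a1 held 8, 8, 7 and 17 reads in siAPC CB and 3, 10, 14 and 16 in siAPC Ps, against 1, 0, 3 and 0 in siControl CB and 0, 0, 1 and 1 in siControl Ps. Nid2, nidogen 2, held 9, 11, 7 and 8 reads in siAPC CB and 2, 1, 0 and 0 in siControl CB. Both stood near the limit of 3 reads in siControl, so no fold is given. Loxl4 was higher in siAPC in CB (1.03, adjusted p = 0.0259) and in Ps (1.70, adjusted p = 0.000356). It held 39, 45, 45 and 47 reads in siAPC CB and 12, 23, 27 and 23 in siControl CB. In Ps it held 10, 16, 28 and 29 reads in siAPC and 3, 5, 5 and 5 in siControl, near the limit of 3 reads, so the size of its Ps difference is uncertain. Its CB call was lost without siAPC CB replicate 2, 3 or 4, without siControl CB replicate 1, and without the 4 libraries of negative GC correlation. Col6a4 held 0, 4, 4 and 2 reads in siAPC Ps against 7, 8, 6 and 5 in siControl Ps. It was called lower (adjusted p = 0.0139 in limma), and the fitted difference of -1.91 leaned on the library with 0 reads, since without it the value was -1.21 (adjusted p = 0.0307). Leaving out 1 library ended fraction calls of Adamts13 and Lamb3 in siControl and of Adamts15, Adamts6, Col2a1, Col6a4 and Lamb3 in siAPC.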

How the data were processed

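RNA of Ps and CB fractions from siControl and siAPC cells was measured in 16 libraries made with a stranded mRNA kit. The authors aligned reads to mm10 with STAR 2.4.2a, counted them per gene with Rsubread and a GENCODE annotation, and normalized them with voom in limma 3.26.1. The deposited values are log2 CPM, with 0.5 added to the reads of a gene and an effective library size. Inverting this gave whole reads, within 0.01, for 100% of 208240 values. Whether counting used strand is not stated, so overlapping genes are uncertain. The members and lists were chosen with earlier results of these data known.

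Deposited values of all 16 libraries were fitted with limma 3.58.1 in R 4.3.3 (lmFit, eBayes with a trend), with 1 mean per group. P-values are two-sided and were Benjamini-Hochberg adjusted over 13015 genes, and an adjusted p below 0.05 was called. Errors are SD over 4 libraries or the SE of the contrast. The study calls the replicates independent without saying at which step they parted, so p-values measure the spread between these libraries, which may be partly technical. Named genes were Col1a1, Col1a2, Col3a1, Fn1, Sparc and Lox, plus the 5 highest and 5 lowest called members of each comparison with a mean of at least 1. For the interaction the rule took up to 3 each way at an unadjusted p below 0.05, which gave Thbs1. Other genes are examples of their class, chosen after their values were seen, and 1 member that the rule names is not reported here. Gene positions, coding length and GC content came from GENCODE M21 (GRCm38), which matched 12873 genes (98.9%) and all 73 members.

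Replicate numbers come from the labels. After subtracting group means, libraries with the same number correlated above 0.1 in all 4 pairs for CB and Ps of siAPC (mean 0.502) and for Ps of both siRNAs (mean 0.345). They did so in 2 of 4 pairs for CB and Ps of siControl (mean 0.132) and for CB of both siRNAs (mean -0.03). A fit with the number as a block was an alternative. Others were scaling to total listed reads, quantile normalization, voom weights, no variance trend, a filter on low values, 2 reads as pseudocount, removal of a GC and length trend, leaving out 4 libraries of strong negative GC correlation that earlier results named, and leaving out each library. Replicates differed by more than counting noise (chi-squared per degree of freedom 2.06 to 28.2).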

Additional observations from a re-analysis of the deposited data

Results flagged for a closer look

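Among 100 groups of 4 libraries (25 named genes in 4 groups), 4 held 1 library far from the other 3, by a test that chance meets in about 1 in 20 groups. Col1a1 in siAPC Ps replicate 2 was 12.46 against 12.70 to 12.75. Dcn in siControl Ps replicate 1 was 0.49 against 0.90 to 0.96. Col4a4 in siControl CB replicate 2 was 1.22 against 1.64 to 1.70. Vcan in siControl CB replicate 3 was 6.53 against 5.28 to 5.45. This library and siAPC Ps replicate 2 are among the 4 of strong negative GC correlation. The cause was not tested.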

How the results depend on the processing

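Counts of called members held within 1.5 times the main count under all alternatives except the following. Scaled to total listed reads, 1 member was higher in Ps in each siRNA in place of 3, and 4 were lower in siAPC Ps in place of 9. In siAPC, 6 were higher in Ps after removal of the GC and length trend and 5 without the 4 libraries of strong negative GC correlation. Leaving out 1 library gave 4 to 10 lower in siAPC CB, with 4 without siAPC CB replicate 4 or siControl CB replicate 4. The cause was not tested. With the replicate block the counts were 3 higher and 58 lower for Ps against CB in siControl and 3 and 60 in siAPC. They were 21 and 10 for siAPC in CB, 27 and 9 in Ps and 0 and 0 for the interaction. Blocking on the label number thus moved no count by over 1.5 times. Replicate 3 of siControl CB correlated with replicate 2 of siControl Ps (0.355) and of siAPC CB (0.575). With replicate 3 of these groups it was at -0.121 and -0.324, so the block does not cover that likeness. Directions turned for Bgn under quantile normalization (-0.21 and -0.25 in siControl and siAPC) and, after removal of the GC and length trend, for Timp1 (-0.21 and -0.19), Col7a1 (0.24 and 0.34) and, in siControl, Loxl1 (0.0083). Values that had not passed turned for Lox between Ps and CB in siAPC, at -0.11 scaled to total reads, -0.15 without the GC and length trend, -0.0421 without the 4 GC libraries and -0.107 to 0.168 on leaving out 1 library. They turned for Col3a1 and Lox between siRNAs in Ps, at 0.11 and 0.12 scaled to total reads, 0.0340 and 0.0284 under quantile normalization, and -0.122 to 0.0213 and -0.197 to 0.0776 on leaving out 1 library. The Col1a1 interaction spanned -0.00156 to 0.162 on leaving out 1 library and 0.05 to 0.72 over the other settings. Over those settings the interaction spanned 0.09 to 0.35 for Fn1, 0.07 to 0.34 for Sparc and 0.07 to 0.44 for Lox. None of these passed. Nid2 and Col26a1, near 3 reads in siControl, are given without a fold, and the part of depth was not tested.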
